A study of Mus musculus with 8 samples.

Results

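The 34 genes described here encode the machinery that folds proteins in the endoplasmic reticulum (ER) and the stress response that watches over it. They are 11 chaperones and co-chaperones, 5 disulfide enzymes, 7 genes of ER-associated degradation, 3 genes of protein import, 3 stress sensors and 5 stress effectors, chosen by gene symbol from a table of 49315 gene identifiers. The genes and their roles were chosen with earlier results of these data known, so shares of them set against all genes describe and are not independent support. All 34 were found, and all 34 passed the filter on low counts that left 14909 genes for testing. RNA was sequenced from neutrophils that casein had drawn into the peritoneal cavity of C57BL/6 mice aged 2 months. Low-density and high-density neutrophils were prepared, from wild-type mice and from mice labelled H2R deficient. H2R is the usual short name of the histamine H2 receptor, encoded by Hrh2. The 8 libraries form 4 groups of 2, wild-type high-density and low-density (numbers 2 and 4) and H2R-deficient high-density and low-density (numbers 1 and 2). All mice received casein, so no group holds resting cells. The labels name neither the construct behind the H2R deficiency nor the cell type that lacks the receptor, and nothing in them tells whether both libraries of a group stem from different animals. The spread that the p-values rest on may thus be technical.

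Proteins that enter the secretory pathway pass through the Sec61 channel into the ER, where chaperones such as BiP hold them and disulfide isomerases pair their cysteines. When folding falls behind, the sensors IRE1, PERK and ATF6 are set off: IRE1 splices the Xbp1 message, PERK slows translation and lets ATF4 be made, and ATF6 is cut into a transcription factor. The products raise chaperones and degradation genes, and prolonged PERK signalling raises CHOP and GADD34. Neutrophils make most of their granule proteins as precursors in the bone marrow, whereas plasma cells hold an extended ER and depend on Xbp1.

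A short promoter sequence, the ER stress response element, is known to be bound by NF-Y at CCAAT and by ATF6 at CCACG. The 250 bases before the RefSeq transcription start (GRCm38.p6) were searched on both strands for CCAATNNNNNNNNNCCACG, and the table held a window for 28 of the 34 genes. The element was found for 9 of these 28 genes (32.1%), against 37 of 32851 windows of the same length in the table (0.113%). The first share counts genes and the second windows, which include those of these genes, and no test compared them. These genes were chosen for their part in ER folding and stress, so the higher share is no independent support. The matches are aligned here so that the shared ends and the differing spacer can be seen, with the element in capitals, 5 flanking bases on each side, and each read 5′ to 3′ on the strand that carries CCAAT.

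Hspa5, chr2:34772020-34772048, plus strand: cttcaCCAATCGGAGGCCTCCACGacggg
Hsp90b1 farther from the start, chr10:86705633-86705661, minus strand: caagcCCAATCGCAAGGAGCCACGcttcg
Hsp90b1 nearer to the start, chr10:86705528-86705556, plus strand: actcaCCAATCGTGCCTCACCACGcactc
Calr, chr8:84847070-84847098, plus strand: atgggCCAATGAGGGTCGACCACGcgttg
Canx, chr11:50325795-50325823, minus strand: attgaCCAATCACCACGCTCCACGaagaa
Pdia6, chr12:17266486-17266514, plus strand: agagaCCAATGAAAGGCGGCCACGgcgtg
Dnajc3, chr14:118937822-118937850, plus strand: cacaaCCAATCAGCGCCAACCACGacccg
Creld2, chr15:88819515-88819543, minus strand: gtggaCCAATTGAGGCTCGCCACGagaag
Syvn1, chr19:6046527-6046555, plus strand: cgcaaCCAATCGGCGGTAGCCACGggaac
Derl3, chr10:75893237-75893265, minus strand: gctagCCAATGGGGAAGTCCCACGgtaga

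Herpud1, the scaffold of a degradation complex, held the related element II instead, searched as ATTGGNCCACG on both strands and found in 10 windows of the table (0.0304%). It is shown in the same way, in capitals, to set its shorter spacer beside those above.

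Herpud1 element II, chr8:94386372-94386392, plus strand: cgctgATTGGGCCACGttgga

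Derl3, whose level differed most between the populations, is shown with more of its promoter, on the gene's own plus strand, where the element reads in reverse (capitals).

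Derl3 upstream stretch, chr10:75893202-75893300, plus strand: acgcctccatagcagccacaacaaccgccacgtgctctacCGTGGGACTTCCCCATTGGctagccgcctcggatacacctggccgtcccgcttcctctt

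The 7 bases TGACGTG, the core of the unfolded protein response element that XBP1 and ATF6 can bind, stood in 542 windows (1.65%) and among these genes in that of Hspa5. TGATGNAA, a site for ATF4 with a C/EBP partner, stood in 1134 windows (3.45%) and among these genes in that of Herpud1. No match overlapped another. Pdia4 and Sdf2l1, described below, had a window without an exact match to any of the 4 motifs, and Hyou1, Sil1, Manf, Derl1, Sec61a1 and Atf6 had no entry. A match describes the letters only.

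**Figure D1:**
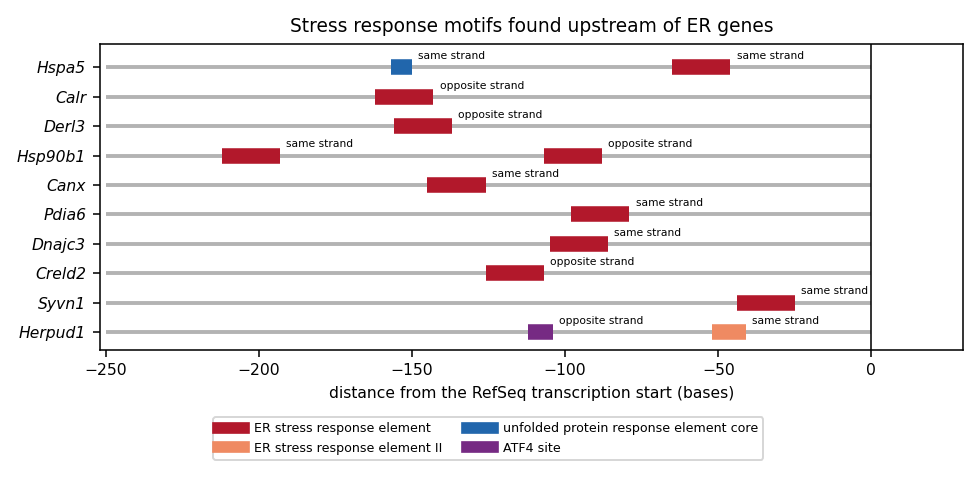
Positions of the motifs in the 250 bases before the RefSeq transcription start (x axis, bases; 0 is the start) of the 10 genes with an element, 1 gene per line. Red boxes mark the ER stress response element, orange element II, blue the TGACGTG core and purple the ATF4 site, each labelled by its strand relative to the gene; Hsp90b1 holds the element at 2 places and Herpud1 holds element II.

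Libraries held 19862716 to 24199215 counts assigned to genes. Scaling by TMM (trimmed mean of M-values, which sets the bulk of genes level between libraries) gave factors of 0.742 to 0.808 in high-density and 1.11 to 1.49 in low-density libraries. Scaling by total counts alone therefore moved the median log2 fold change of all genes between low and high density. It went from 0.10 to 0.67 for wild-type libraries and from 0.10 to 1 for H2R-deficient ones, and the density changes below are after TMM scaling unless total counts are named. Hrh2 was detected in all libraries, at 28 to 91.7 CPM (counts-per-million) over total counts in wild-type and 10.2 to 27 CPM in H2R-deficient libraries, and its genotype difference passed at neither density (edgeR adjusted p = 0.192 and 0.196); counts over the whole gene check a deletion only in part. Transcripts of the 10 mature neutrophil markers summed to 52400 to 56400 CPM in high-density and 28200 to 50800 CPM in low-density libraries. The 8 plasma cell markers summed to 19.3 to 47.9 CPM in high-density and 138 to 572 CPM in low-density libraries, and Tnfrsf17 was at 0 in the 4 high-density libraries. In bulk RNA, fewer cells of a type and less RNA per cell cannot be told apart.

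The comparison of the low-density with the high-density population asked how the 2 populations differ within a genotype. In H2R-deficient libraries most chaperones and disulfide enzymes stood higher at low density, led by Pdia4, Sdf2l1 and Sil1, and the degradation gene Derl3 rose with them. Of the 3 sensors none passed with TMM scaling and the filter on low counts, though all 3 were higher with total counts. Of the 5 effectors 3, Xbp1, Ddit3 and Ppp1r15a, were lower after TMM scaling. Xbp1 was the single one of these falls that also passed with total counts. In wild-type libraries 3 genes rose, Pdia4, Sdf2l1 and Derl3, and Ppp1r15a fell, under both scalings. After TMM scaling these were 8.82% and 2.94% of the ER genes, close to the 8.51% higher and 4.15% lower of all genes tested. The wild-type calls on Sdf2l1, Derl3 and Ppp1r15a were lost without wild-type high-density library 2.

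Among the 34 genes, 13 were higher (38.2%) and 6 lower (17.6%) at low density in H2R-deficient libraries by edgeR's quasi-likelihood test with TMM scaling and a Benjamini-Hochberg adjusted p under 0.05. Of all genes tested, 30% were higher and 23.9% lower, so the share of ER genes was close to the background in both directions. With total counts, 25 of the 34 were higher and 1 lower (73.5% and 2.94%), against 51.6% and 2.6% of all genes. The median log2 fold change of the 34 was 0.09, against 0.10 for all genes, with a range from -1.44 to 4.34. The count of lower genes was 3 without H2R-deficient low-density library 1. In wild-type libraries 3 of the 34 were higher (8.82%) and 1 lower (2.94%), against 8.51% and 4.15% of all genes, and with total counts 19 were higher (55.9%) and 1 lower, against 32.3% and 0.832%. Their median was 0.11, against 0.10 for all genes. The wild-type count of higher genes was 1 without high-density library 2, and that of lower genes was 0 without high-density library 2 or low-density library 2 and 2 without high-density library 4.

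**Figure D2:**
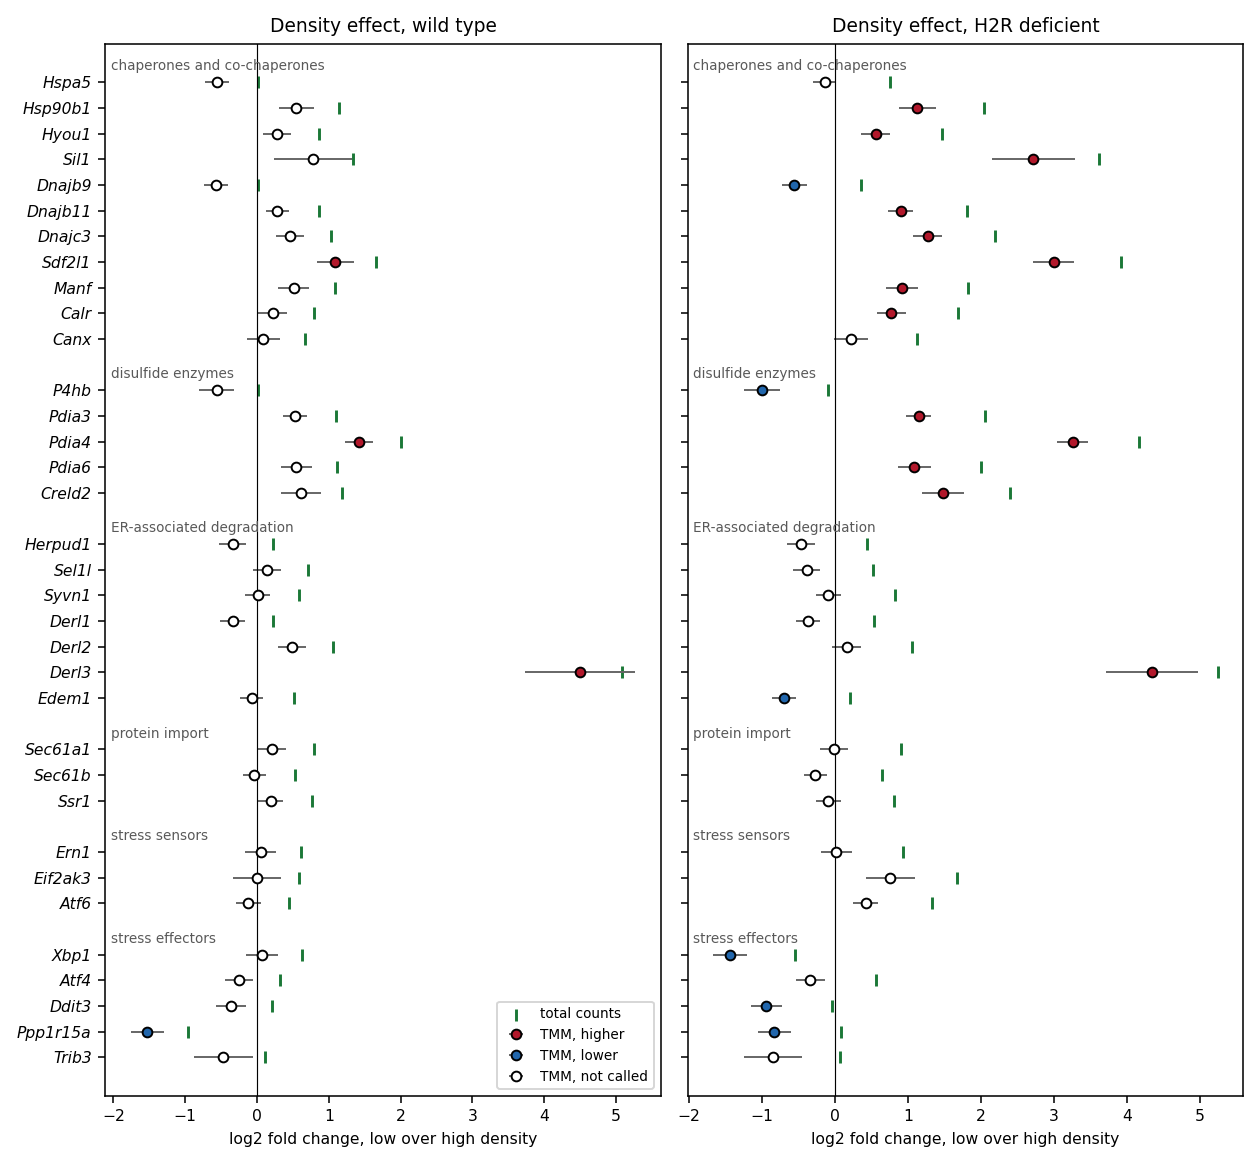
Log2 fold change of low over high density (x axis) for each of the 34 ER genes (y axis, grouped by role) in wild-type (left) and H2R-deficient (right) libraries, n = 2 per group. Circles are edgeR estimates with TMM scaling and bars their standard error, red where higher and blue where lower at an adjusted p under 0.05; green ticks are the estimates with total counts, which lie to the right of the circles, and of the 6 blue circles in the right panel that of Xbp1 alone also passed with total counts. In the right panel 12 of the 16 chaperones and disulfide enzymes are red, with Pdia4 at 3.26 and Sdf2l1 at 3, while 30% of all genes were higher.

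The chaperones and disulfide enzymes, 16 genes that fold proteins, split by member. Of these, 12 were higher and 2 lower at low density in H2R-deficient libraries after TMM scaling, with a median log2 fold change of 1.01, and 14 were higher and 0 lower with total counts (median 1.91). In wild-type libraries 2 were higher and 0 lower (median 0.49), and 11 and 0 with total counts (median 1.06). All genes had 30% higher and 23.9% lower in H2R-deficient and 8.51% and 4.15% in wild-type libraries. With total counts these shares were 51.6% and 2.6%, and 32.3% and 0.832%.

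Pdia4, a disulfide isomerase with several thioredoxin-like domains (ENSMUSG00000025823, chr6:47796141-47813430 on the minus strand of GRCm38), showed the clearest contrast. It stood at 22.1 and 29.6 CPM over TMM-scaled library sizes in wild-type high-density and at 75.3 and 63.3 CPM in wild-type low-density libraries. The H2R-deficient libraries held 14.5 and 15.1 CPM at high density and 149 and 135 CPM at low density. The 4 groups did not overlap, and both the lowest and the highest levels were in H2R-deficient cells. Many of the genes shown by library were picked for a low adjusted p in these same density contrasts. Lack of overlap, here and below, is therefore no further support, and its share over all genes was not examined. The log2 fold change was 3.26 ± 0.21 (SE) in H2R-deficient libraries (edgeR adjusted p = 0.000147) and 1.42 ± 0.20 in wild-type libraries (edgeR adjusted p = 0.00645).

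Sdf2l1, an ER protein that works with the co-chaperone ERdj3 (chr16:17130138-17132383, minus strand), followed the same order at lower levels. Its wild-type values were 4.66 and 7.73 CPM at high and 13.8 and 12.5 CPM at low density, and its H2R-deficient values were 2.80 and 3.51 CPM at high and 27.9 and 22.7 CPM at low density. Again no 2 groups overlapped. The log2 fold change was 3 ± 0.28 in H2R-deficient libraries (edgeR adjusted p = 0.000203) and 1.09 ± 0.26 in wild-type libraries (edgeR adjusted p = 0.0325). The wild-type call was lost without wild-type high-density library 2 (0.77, edgeR adjusted p = 0.15), without either wild-type low-density library, after omitting library 2 of the H2R-deficient low-density group and in a fit of the wild-type libraries alone.

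Dnajc3 and Dnajb11 encode J-domain partners that hand clients to BiP. Dnajc3 measured 26.9 and 28.7 CPM in wild-type high-density, 38.6 and 37.8 in wild-type low-density, 24.1 and 18.6 in H2R-deficient high-density and 58.0 and 45.3 in H2R-deficient low-density libraries. Dnajb11 measured 32.2 and 36.7, 42.8 and 41, 31.4 and 28.3, and 57.0 and 54.4 CPM in the same order of groups. Both genes were highest in the H2R-deficient low-density libraries and lowest in the H2R-deficient high-density libraries, and their density changes there were 1.27 ± 0.20 and 0.90 ± 0.17 (edgeR adjusted p = 0.000989 and 0.00202). In wild-type libraries the changes were 0.46 ± 0.20 and 0.28 ± 0.16 and did not pass, whereas with total counts they were 1.03 and 0.86 and passed (edgeR adjusted p = 0.0101 and 0.0104).

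Hspa5, which encodes BiP, the central chaperone and a textbook readout of ER stress, did not follow them. Its levels were 1130 and 1060 CPM in wild-type high-density, 711 and 774 in wild-type low-density, 982 and 965 in H2R-deficient high-density and 876 and 890 in H2R-deficient low-density libraries. Thus low-density libraries were below high-density libraries of either genotype after TMM scaling. Neither the wild-type change of -0.56 ± 0.17 (edgeR adjusted p = 0.0544) nor the H2R-deficient change of -0.14 ± 0.16 (edgeR adjusted p = 0.489) passed. With total counts they were 0.01 and 0.76, and the second passed (edgeR adjusted p = 0.00239), so the direction for Hspa5 turns with the scaling. The wild-type fall passed with DESeq2 and with limma-voom (DESeq2 adjusted p = 0.00284, limma-voom adjusted p = 0.0487).

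Hsp90b1, the ER form of HSP90, held 164 and 162 CPM in wild-type high-density and 272 and 207 CPM in wild-type low-density libraries. In H2R-deficient libraries it held 225 and 142 CPM at high and 437 and 366 CPM at low density. Low density was higher in both genotypes without overlap, and the H2R-deficient change passed (1.13 ± 0.25, edgeR adjusted p = 0.00447) while the wild-type change did not (0.55 ± 0.24, edgeR adjusted p = 0.147). With total counts the wild-type change was 1.14 and passed (edgeR adjusted p = 0.0136). Of its exon bases 10.3% are shared with 1810014B01Rik on the opposite strand, which had at most 87 counts in a library, and no source used here gives the strand setting of the counting.

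Dnajb9, another J-domain partner of BiP, went the other way. It measured 87.5 and 73.1 CPM in wild-type high-density, 56.7 and 51.4 in wild-type low-density, 97.5 and 89.9 in H2R-deficient high-density and 66.1 and 60.8 in H2R-deficient low-density libraries. Every low-density library was below every high-density library after TMM scaling. The H2R-deficient change passed at -0.56 ± 0.17 (edgeR adjusted p = 0.0202) but was 0.35 with total counts, and the wild-type change of -0.57 ± 0.17 did not pass (edgeR adjusted p = 0.0552) and was 0.01 with total counts. The H2R-deficient call was also lost without high-density library 1 (edgeR adjusted p = 0.1), low-density library 1 (0.0738) or low-density library 2 (0.121), and without a filter on low counts (-0.46, edgeR adjusted p = 0.0984).

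Other chaperones that rose at low density in H2R-deficient libraries were Manf, a small secreted ER protein (0.92 ± 0.22), the lectin chaperone Calr (0.77 ± 0.20), the BiP exchange factor Hyou1 (0.56 ± 0.20) and Sil1, another exchange factor (2.72 ± 0.57). Sil1 was rare, with 8 and 12 counts in H2R-deficient high-density and 140 and 121 counts in H2R-deficient low-density libraries. The Hyou1 call (edgeR adjusted p = 0.0421) was lost without any 1 of the 4 H2R-deficient libraries, and the Calr call without high-density library 2 or low-density library 1. The wild-type changes were 0.51 for Manf, 0.22 for Calr, 0.28 for Hyou1 and 0.78 for Sil1, and none of these passed after TMM scaling. With total counts Manf (1.09), Calr (0.79) and Hyou1 (0.86) passed in wild type (edgeR adjusted p = 0.0121, 0.0205 and 0.023), and Sil1 did not (1.34, edgeR adjusted p = 0.082). Canx, the membrane-bound partner of Calr, passed in neither genotype after TMM scaling (0.09 in wild-type and 0.22 in H2R-deficient libraries). With total counts its H2R-deficient change was 1.13 and passed (edgeR adjusted p = 0.00475).

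Pdia3, the isomerase that acts with Calr and Canx on glycoproteins, held 97.7 and 109 CPM in wild-type high-density, 147 and 151 in wild-type low-density, 99.8 and 82.6 in H2R-deficient high-density and 213 and 192 in H2R-deficient low-density libraries. Pdia6, an isomerase that also binds BiP, held 52.2 and 63.4, 89.5 and 79.3, 68.1 and 45.4, and 131 and 111 CPM in that order. Creld2, an ER protein with isomerase activity, held 12.7 and 12.2, 19.7 and 18.2, 14.4 and 8.04, and 37.2 and 25.5 CPM. In all 3 the low-density libraries of a genotype lay above its high-density libraries. Their H2R-deficient changes were 1.15 ± 0.17, 1.09 ± 0.23 and 1.48 ± 0.29 and passed (edgeR adjusted p = 0.000843, 0.0035 and 0.00249). The wild-type changes were 0.53, 0.55 and 0.61 and passed after TMM scaling in none of the 3, but passed in all 3 with total counts.

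P4hb, the founding protein disulfide isomerase and a subunit of prolyl 4-hydroxylase, was again opposite. Its levels were 671 and 714 CPM in wild-type high-density, 466 and 472 in wild-type low-density, 564 and 871 in H2R-deficient high-density and 298 and 421 in H2R-deficient low-density libraries. The low-density values were below the high-density values within each genotype. In H2R-deficient libraries the change was -1 ± 0.25 (edgeR adjusted p = 0.00811), but it was -0.10 with total counts and did not pass there, nor without high-density library 2 or low-density library 1. The wild-type change was -0.56 ± 0.24 (edgeR adjusted p = 0.143), and 0.01 with total counts.

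Ratios of 2 genes within a library do not depend on the scaling between libraries. Levels here are in TPM (transcripts-per-million), which correct for gene length. Per 100 TPM of Hspa5, Pdia4 stood at 3.46 and 4.90 TPM in wild-type high-density, 18.7 and 14.4 in wild-type low-density, 2.61 and 2.75 in H2R-deficient high-density and 30 and 26.8 in H2R-deficient low-density libraries. Hsp90b1 per 100 Hspa5 stood at 15.3 and 16, 40.2 and 28, 24 and 15.4, and 52.3 and 43.1. Both ratios were higher at low density in either genotype, so the proportions of these genes differed between the populations under any scaling. Dnajc3 per 100 Dnajb9 gave the same order, at 11.1 and 14.1, 24.5 and 26.4, 8.87 and 7.45, and 31.5 and 26.8. Each pair sets a gene with higher estimates at low density over one with lower estimates. The direction of the ratios thus follows from the changes given above and is no further support.

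**Figure D3:**
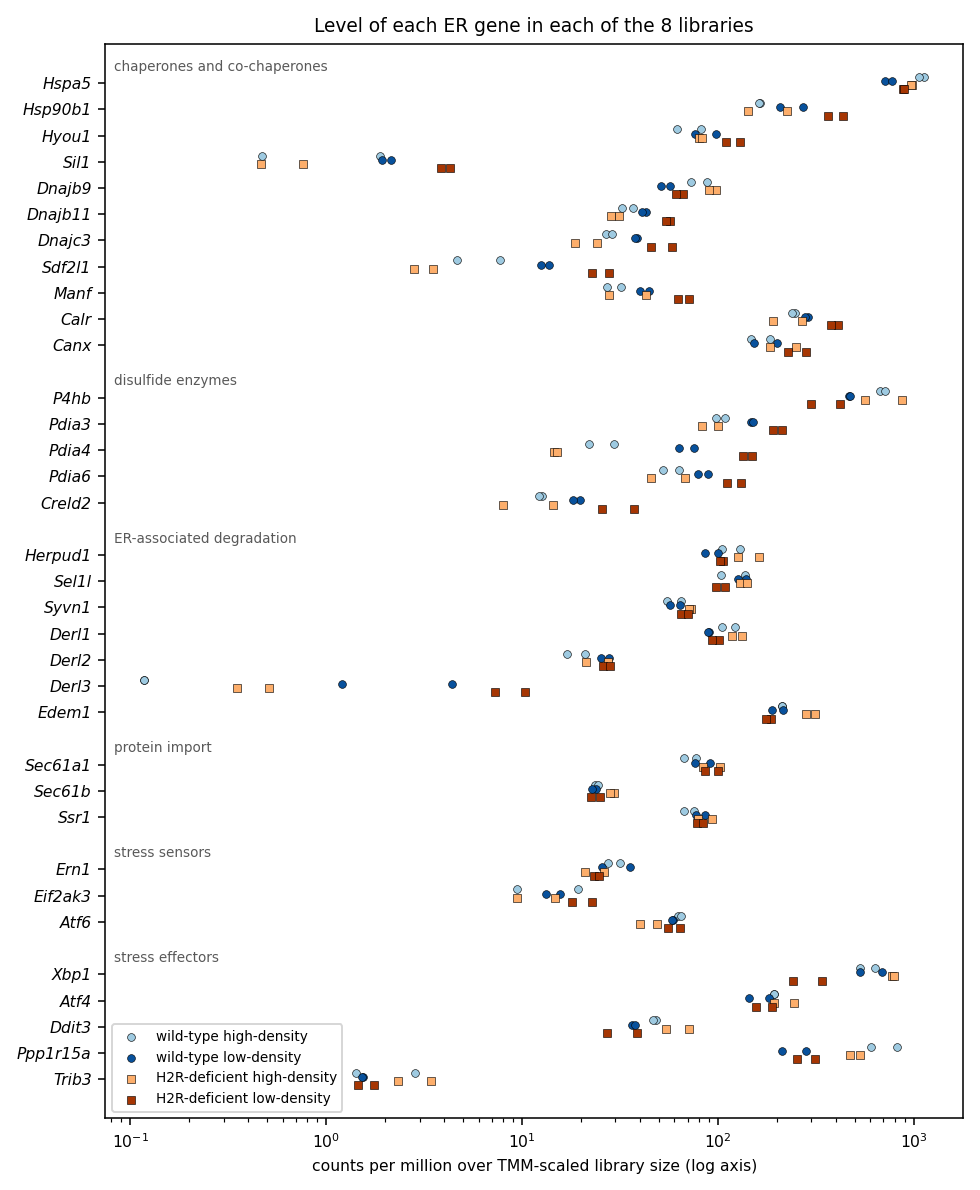
Level of each of the 34 ER genes in each of the 8 libraries, in CPM over TMM-scaled library size on a log axis (x), with genes grouped by role (y). Circles are wild type, squares H2R deficient, light symbols high density and dark symbols low density, 1 symbol per library. For Pdia4 the light squares (14.5 and 15.1) lie farthest left and the dark squares (149 and 135) farthest right, whereas for Xbp1 the dark squares (241 and 338) lie farthest left.

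ER-associated degradation returns misfolded proteins to the cytosol for the proteasome. Of its 7 genes 1 was higher and 1 lower at low density in H2R-deficient libraries (median -0.37) and 1 higher and 0 lower in wild-type libraries (median 0.01), and with total counts 4 were higher and 0 lower in each. For all genes the shares were 30% and 23.9% in H2R-deficient and 8.51% and 4.15% in wild-type libraries. With total counts 51.6% and 32.3% of all genes were higher in H2R-deficient and wild-type libraries. The riser in both genotypes was Derl3, a derlin known to be inducible by ER stress (chr10:75893398-75895941, plus strand), whose promoter element is printed above. Derl3 had 2 and 2 counts in wild-type high-density, 108 and 31 in wild-type low-density, 6 and 8 in H2R-deficient high-density and 371 and 205 in H2R-deficient low-density libraries. Low and high density did not overlap in either genotype, but 2 counts lie under the floor of 3 counts used here. Pooled over the 2 libraries of a group, the CPM ratio of low to high density was 34.8 in wild type (95% exact interval 13.3 to 129) and 39.4 in H2R-deficient cells (23.3 to 72.5), intervals that cover counting error only. The fitted changes, which depend on the prior count at such levels, passed in both genotypes (edgeR adjusted p = 0.0131 and 0.000746). In wild type the call was lost without high-density library 2 and with limma-voom (limma-voom adjusted p = 0.0796).

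The other derlins, Derl1 and Derl2, varied less between the groups. Derl1 lay at 105 and 122 CPM in wild-type high-density, 90.3 and 89.3 in wild-type low-density, 132 and 118 in H2R-deficient high-density and 101 and 92.9 in H2R-deficient low-density libraries. Derl2 lay at 17.0 and 20.9, 27.7 and 25.3, 27.4 and 21.1, and 26.0 and 28.2 CPM. Wild-type and H2R-deficient density changes were -0.34 and -0.37 for Derl1 and 0.49 and 0.16 for Derl2, and none passed after TMM scaling. With total counts Derl1 had 0.23 and 0.54, of which the H2R-deficient value passed (edgeR adjusted p = 0.036), and Derl2 had 1.06 in either genotype and passed in both. Per 100 TPM of Derl1, Derl3 stood at 0.265 and 0.227 in wild-type high-density and 24 and 18.4 in H2R-deficient low-density libraries, so even at its highest Derl3 remained the rarer derlin transcript of that pair.

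Edem1, a lectin that takes mannose-trimmed proteins out of the folding cycle, measured 212 and 212 CPM in wild-type high-density, 216 and 189 in wild-type low-density, 312 and 280 in H2R-deficient high-density and 187 and 177 in H2R-deficient low-density libraries. It was the degradation gene that fell in H2R-deficient cells (-0.70 ± 0.17, edgeR adjusted p = 0.0065), with 0.20 under total counts, and its wild-type change was -0.07 (0.51 under total counts); neither total-count value passed. Herpud1 measured 105 and 130, 99.7 and 86.2, 163 and 126, and 106 and 103 CPM in that order. Its changes of -0.34 and -0.47 did not pass with edgeR (adjusted p = 0.248 and 0.0664), and the H2R-deficient one passed with DESeq2 (-0.52, DESeq2 adjusted p = 0.0319). With total counts its changes were 0.23 and 0.44 and did not pass. Sel1l and Syvn1, adaptor and ubiquitin ligase of the same membrane complex, changed by 0.14 and 0.01 in wild-type and by -0.39 and -0.09 in H2R-deficient libraries, and none of these passed after TMM scaling. With total counts they were 0.71 and 0.58 in wild-type libraries, where both passed, and 0.52 and 0.82 in H2R-deficient libraries, where Syvn1 passed (edgeR adjusted p = 0.00229) and Sel1l did not (0.0507).

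The 3 import genes passed in neither genotype after TMM scaling. Sec61a1, the pore of the channel, measured 77.1 and 67.5 CPM in wild-type high-density, 91.0 and 76.1 in wild-type low-density, 103 and 84.0 in H2R-deficient high-density and 100 and 86.4 in H2R-deficient low-density libraries. Sec61b, a small subunit, measured 23.6 and 24.3, 23.8 and 22.7, 29.4 and 28, and 25 and 22.6 CPM, and Ssr1, of the translocon-associated complex, measured 67.5 and 75.8, 86.2 and 77.4, 93.3 and 79.2, and 78.4 and 83.7 CPM. All groups lay within a narrow band for each gene. The H2R-deficient changes were -0.01, -0.27 and -0.09 after TMM scaling and 0.90, 0.64 and 0.81 with total counts, where all 3 passed, against a shift of all genes of 1.

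None of the 3 sensors passed in either genotype with TMM scaling and the filter on low counts. Ern1, which encodes IRE1, measured 31.7 and 27.5 CPM in wild-type high-density, 25.6 and 35.7 in wild-type low-density, 21.0 and 26.2 in H2R-deficient high-density and 23.3 and 24.6 in H2R-deficient low-density libraries. The groups overlapped, and its wild-type change of 0.05 ± 0.21 and H2R-deficient change of 0.02 ± 0.21 lay close to 0. Eif2ak3, which encodes PERK, measured 19.4 and 9.38, 15.6 and 13.3, 14.7 and 9.38, and 22.7 and 18.1 CPM. Its H2R-deficient libraries did not overlap between densities (0.76 ± 0.34, edgeR adjusted p = 0.0868), and that change passed with the library number as a block (0.78, edgeR adjusted p = 0.0211), in a fit of the H2R-deficient libraries alone (0.88, edgeR adjusted p = 0.0341) and without either wild-type high-density library. Atf6 measured 62.8 and 64.7, 58.8 and 58.2, 40.1 and 49.0, and 55.6 and 63.8 CPM. In H2R-deficient libraries it was higher at low density (0.42 ± 0.17, edgeR adjusted p = 0.063) and passed in a fit of those libraries alone (0.53, edgeR adjusted p = 0.0358). Without a filter on low counts the H2R-deficient changes of Eif2ak3 (0.87, edgeR adjusted p = 0.00161) and Atf6 (0.53, edgeR adjusted p = 0.0498) passed. With total counts all 3 sensors were higher at low density in H2R-deficient libraries, with a median of 1.33, and 1 of 3 in wild-type libraries. Among all genes the shares higher with total counts were 51.6% and 32.3%. Of the exon bases of Eif2ak3, 8.05% are shared with Gm43292 on the opposite strand, which had at most 14 counts.

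The effectors did not move with the folding genes. Of 5, 0 were higher and 3 lower at low density in H2R-deficient libraries (median -0.85), and 0 and 1 in wild-type libraries (median -0.36). The shares of all genes were 30% higher and 23.9% lower in H2R-deficient and 8.51% and 4.15% in wild-type libraries. With total counts 1 was higher and 1 lower in each genotype. All genes then had 51.6% higher and 2.6% lower in H2R-deficient and 32.3% and 0.832% in wild-type libraries.

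Xbp1, the message that IRE1 splices into a potent activator of ER genes (chr11:5520659-5525893, plus strand), stood at 534 and 631 CPM in wild-type high-density and 531 and 692 CPM in wild-type low-density libraries, which overlapped. In H2R-deficient libraries it stood at 776 and 796 CPM at high and at 241 and 338 CPM at low density, the highest and the lowest of all libraries. The change was -1.44 ± 0.23 in H2R-deficient libraries (edgeR adjusted p = 0.000989) and 0.07 ± 0.22 in wild-type libraries (edgeR adjusted p = 0.842). With total counts the H2R-deficient fall was -0.55 and passed (edgeR adjusted p = 0.0342), and it passed under every alternative and left-out library that was run; the wild-type change was then 0.63 and passed as well (edgeR adjusted p = 0.0311). The difference between both density changes did not pass after TMM scaling (-1.51 ± 0.31, edgeR adjusted p = 0.0906), and its values by other settings are given with the genotype comparisons. Gene counts do not separate the spliced from the unspliced message, so they do not measure IRE1 activity.

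Ppp1r15a, which encodes GADD34, the subunit that lets translation resume after PERK has slowed it (chr7:45522916-45526268, minus strand), was high in the high-density populations. Its levels were 822 and 605 CPM in wild-type high-density, 213 and 282 in wild-type low-density, 532 and 474 in H2R-deficient high-density and 312 and 253 in H2R-deficient low-density libraries. Every high-density library was above every low-density library after TMM scaling. In wild-type libraries the fall was -1.53 ± 0.23 (edgeR adjusted p = 0.00871) and -0.96 with total counts, where it also passed, but it was lost without high-density library 2 (-1.29, edgeR adjusted p = 0.0567) or low-density library 2 (-1.34, edgeR adjusted p = 0.0627). In H2R-deficient libraries it was -0.83 ± 0.23 (edgeR adjusted p = 0.0124) but 0.08 with total counts, and the call was lost without high-density library 1 (-0.74, edgeR adjusted p = 0.0728) or low-density library 2 (-0.69, edgeR adjusted p = 0.0816).

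Ddit3, which encodes CHOP, a factor linked to death under prolonged stress, measured 48.3 and 46.9 CPM in wild-type high-density, 36.6 and 37.6 in wild-type low-density, 54.6 and 71.3 in H2R-deficient high-density and 27.1 and 38.6 in H2R-deficient low-density libraries. Low density was lower in both genotypes, and the H2R-deficient change passed after TMM scaling (-0.94 ± 0.21, edgeR adjusted p = 0.00565) but was -0.04 with total counts, where the wild-type change was 0.21; neither passed. It was also lost without low-density library 1. Atf4, the factor made when PERK is active, measured 194 and 193, 144 and 183, 194 and 244, and 157 and 189 CPM in that order, and its changes of -0.25 and -0.34 did not pass. With total counts they were 0.32 and 0.56, and the H2R-deficient one passed (edgeR adjusted p = 0.0204). Trib3, a pseudokinase induced by ATF4 and CHOP, was rare at 24 to 63 counts per library, with changes of -0.47 and -0.85 that did not pass, and 0.11 and 0.07 with total counts.

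The rule set chaperones against sensors, and this was also computed within each library as the mean log2 CPM of the 16 folding genes minus that of the 3 sensors. The absolute size of that difference depends on gene lengths, so only its change is read. It was 0.66 and 1.26 in wild-type high-density, 1.41 and 1.19 in wild-type low-density, 1.27 and 1.08 in H2R-deficient high-density and 1.83 and 1.70 in H2R-deficient low-density libraries. The wild-type groups overlapped, with means of 0.96 ± 0.43 and 1.30 ± 0.15 (SD, n = 2). The H2R-deficient groups did not, with 1.17 ± 0.14 and 1.76 ± 0.09. From high to low density the folding genes thus gained 0.59 on the sensors in H2R-deficient libraries and 0.34 in wild-type libraries, the latter 0.04 without high-density library 2. Against sensors and effectors together the gain was 1.38 and 0.65. No test was made of this score, since it is taken over chosen genes.

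Xbp1 was also set against the folding genes within each library. Per 100 TPM of Pdia4, Xbp1 stood at 1780 and 1580 in wild-type high-density, 521 and 807 in wild-type low-density, 3940 and 3900 in H2R-deficient high-density and 119 and 185 in H2R-deficient low-density libraries. The 4 groups did not overlap. Per 100 TPM of Hspa5, Xbp1 stood at 61.8 and 77.2, 97.2 and 117, 103 and 107, and 35.8 and 49.5, so that the H2R-deficient low-density libraries were lowest.

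**Figure D4:**
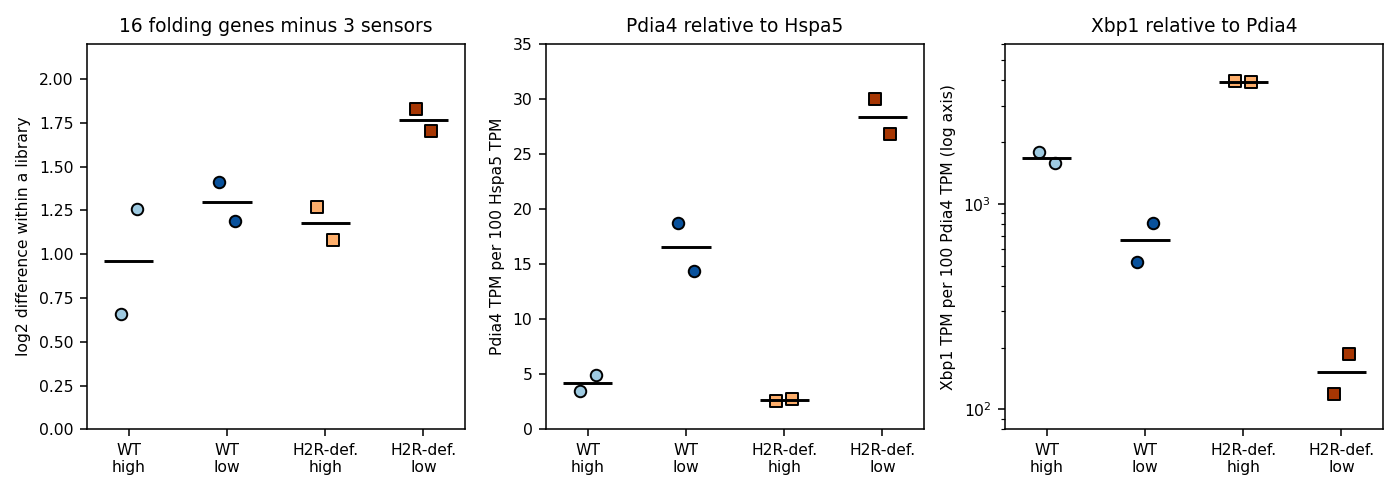
Comparisons within each library, by group (x axis; 1 point per library, bar at the mean of the 2). Left, mean log2 level of the 16 folding genes minus that of the 3 sensors; middle, Pdia4 TPM per 100 Hspa5 TPM; right, Xbp1 TPM per 100 Pdia4 TPM on a log axis. The H2R-deficient low-density libraries are highest on the left (1.83 and 1.70) and in the middle (30 and 26.8) and lowest on the right (119 and 185). Both ratios pair genes whose density changes differed, so their order is no further support.

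By level per length, the 5 most abundant of the 34 transcripts in both high-density groups were Hspa5, P4hb, Ppp1r15a, Xbp1 and Atf4, while in H2R-deficient low-density libraries Calr held rank 2 and Hsp90b1 rank 4. Group means for Hspa5 ran from 438 TPM in H2R-deficient high-density to 785 TPM in H2R-deficient low-density libraries, and those for Ern1, the sensor upstream of Xbp1, from 5.48 to 11.7 TPM. Pdia4 moved from rank 25 of the 34 genes in H2R-deficient high-density to rank 9 in H2R-deficient low-density libraries, and from 19 to 13 in wild type. Xbp1 moved from rank 2 to rank 7 in H2R-deficient libraries and from 4 to 1 in wild type. Summed over the 34 genes the level was 3180 to 3190 TPM in wild-type high-density, 3950 to 4340 in wild-type low-density, 3010 to 3130 in H2R-deficient high-density and 4970 to 5750 in H2R-deficient low-density libraries, a sum that depends on the whole library as total counts do.

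The 9 genes with the ER stress response element included 6 that rose and 0 that fell at low density in H2R-deficient libraries, with a median of 1.09. The risers were Hsp90b1, Dnajc3, Calr, Pdia6, Creld2 and Derl3, and Hspa5, Canx and Syvn1 did not pass. Among the 19 genes with a window and no exact element, 4 rose and 6 fell (median -0.34). The 4 were Dnajb11, Sdf2l1, Pdia3 and Pdia4, all chaperones or disulfide enzymes. The 6 were Dnajb9, P4hb, Edem1, Xbp1, Ddit3 and Ppp1r15a. This split also follows role: apart from Syvn1 and Derl3 the 9 are chaperones or disulfide enzymes, whereas the 19 hold all effectors. Within the chaperones and disulfide enzymes, genes rose both with and without the element. In wild-type libraries 1 of the 9 rose (median 0.46) and, of the 19, 2 rose and 1 fell (median 0.00). Beside these counts stand 30% higher and 23.9% lower of all genes in H2R-deficient and 8.51% and 4.15% in wild-type libraries. The falls depend on the scaling. With total counts 9 of the 9 were higher in H2R-deficient libraries (median 2), and of the 19, 10 were higher and 1, Xbp1, was lower (median 0.56), against 51.6% and 2.6% of all genes. In wild-type libraries total counts gave 7 higher and 0 lower of the 9 and 9 higher and 1 lower of the 19, against 32.3% and 0.832%. No test compared the 9 with the 19. The largest H2R-deficient changes outside Derl3, those of Pdia4 and Sdf2l1, were in genes whose window held no exact match.

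The genotype comparisons asked how H2R-deficient cells differed from wild-type cells of the same density. At high density 0 of the 34 genes passed in either direction with edgeR, against 0.0201% of all genes higher and 0.188% lower. At an unadjusted p under 0.05, 1 was higher and 3 lower, against 7.95% and 10.7% of all genes. DESeq2 called 0 higher and 1 lower, Pdia4 (DESeq2 adjusted p = 0.0132), against 2.56% and 3.67% of the genes it gave an adjusted p, and limma-voom called 0 in either direction, against 0% and 0.0201%. The lowest p-values by edgeR's test were those of Pdia4 (-0.80 ± 0.20, edgeR adjusted p = 0.105) and Sdf2l1 (-0.97 ± 0.28, edgeR adjusted p = 0.135), both lower in both H2R-deficient libraries than in either wild-type library. Atf6 (-0.52 ± 0.17) and Edem1 (0.48 ± 0.17) followed, each without overlap (edgeR adjusted p = 0.171 and 0.177). Picked by p in this comparison, these genes gain no further support from the lack of overlap. Derl3 differed more, with a wider error (1.81 ± 0.95, edgeR adjusted p = 0.342).

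At low density 0 of the 34 genes passed with edgeR, against 0% of all genes in both directions. At an unadjusted p under 0.05, 12 were higher and 1 lower, against 10.7% and 10.3% of all genes, and 11 of the 12 were chaperones or disulfide enzymes. DESeq2 called 2 higher, Pdia4 and Sdf2l1 (DESeq2 adjusted p = 0.00025 and 0.0228), and 1 lower, Xbp1 (DESeq2 adjusted p = 0.000564), against 3.57% and 4.89% of the genes it gave an adjusted p. Limma-voom called 0, against 0.0268% of all genes in each direction. By edgeR the differences were 1.04 ± 0.19 for Pdia4 (adjusted p = 0.104), -1.08 ± 0.22 for Xbp1 (adjusted p = 0.104), 0.95 ± 0.25 for Sdf2l1 (adjusted p = 0.116) and 1.65 ± 0.50 for Derl3 (adjusted p = 0.133). For each of these 4 genes the 2 genotypes did not overlap. The 4 were picked for the lowest p in this same comparison, so the lack of overlap is no further support. The share of all genes without overlap was not examined. The Derl3 difference passed without wild-type low-density library 2 (2.85, edgeR adjusted p = 0.0344).

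Whether the density effect differed between genotypes was tested as the difference of the 2 density changes. With edgeR and TMM scaling 0 of the 34 passed, against 0% of all genes in both directions, and at an unadjusted p under 0.05, 6 were higher and 2 lower, against 12.6% and 8.53% of all genes. The lowest adjusted p, 0.0906 by edgeR, was shared by Pdia4 (1.84 ± 0.28), Sdf2l1 (1.92 ± 0.38) and Xbp1 (-1.51 ± 0.31). These 3 passed with total counts, at 2.17, 2.26 and -1.18 (edgeR adjusted p = 0.0387, 0.0387 and 0.0454), where 4.17% of all genes were higher and 0.0872% lower and the median of all genes moved from 0.04 to 0.38. They also passed with DESeq2 (adjusted p = 9.67e-06, 0.00244 and 0.00117), against 5.56% and 3.39% of the genes it gave an adjusted p, and limma-voom called 0, against 0% in both directions. Hspa5 had a difference of 0.42 ± 0.23, Ern1 of -0.03 ± 0.30 and Derl3 of -0.16 ± 0.89, and none of these passed.

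Markers of other cells moved with density. Of the 7 plasma cell markers tested, 7 were higher at low density in H2R-deficient libraries and 4 in wild-type libraries after TMM scaling. Of all genes tested 30% and 8.51% were higher, and 23.9% and 4.15% lower. Their sum was 528 to 572 CPM in H2R-deficient low-density, 138 to 310 in wild-type low-density, 37.3 to 47.9 in wild-type high-density and 19.3 to 31.7 CPM in H2R-deficient high-density libraries, the same order of groups as for Pdia4 and Sdf2l1. B cell markers (6 of 8 higher in each genotype) summed to 866 to 974, 156 to 377, 31.7 to 38.1 and 26.9 to 38.8 CPM in that order. Dendritic cell markers (6 of 8 higher in each) summed to 720 to 956, 236 to 572, 7.69 to 26.3 and 8.34 to 11.7 CPM, and markers of dividing cells (6 of 6 higher in H2R-deficient and 5 of 6 in wild-type libraries) to 218 to 352, 142 to 204, 53.1 to 78.1 and 55.3 to 59.8 CPM. After TMM scaling 10 of 10 mature neutrophil markers were lower in H2R-deficient and 3 of 10 in wild-type libraries. All 3 erythroid markers were lower in each genotype, as were 4 of 6 and 1 of 6 mast cell markers. Of 9 macrophage markers 6 were higher and 1 lower in H2R-deficient and 0 in wild-type libraries. Of 8 T and NK cell markers 4 were higher in each, and of 4 eosinophil markers 1 was higher and 2 lower. The part of other cells in the levels of the ER genes was not tested.

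Other genes of the same pathways were taken from lists set by function, also with earlier results of these data known. Their counts are to be read against all genes tested, of which 30% were higher and 23.9% lower at low density in H2R-deficient libraries (51.6% and 2.6% with total counts) and 8.51% and 4.15% in wild-type libraries (32.3% and 0.832%). Of 24 other folding genes 15 were higher and 3 lower at low density in H2R-deficient libraries (median 0.74), and 21 and 0 with total counts. In wild-type libraries 2 were higher and 1 lower (median 0.17), and 14 and 0 with total counts. Among them Txndc5, a disulfide enzyme, went from 4.96 ± 1.47 to 67.6 ± 15.9 CPM (SD, n = 2) in H2R-deficient libraries (3.77 ± 0.39, edgeR adjusted p = 0.000242) and rose by 1.79 ± 0.36 in wild type. Lman1, a cargo receptor for export, rose by 2.44 ± 0.25 in H2R-deficient libraries. Of 25 genes of import, cleavage and glycosylation 13 were higher and 1 lower in H2R-deficient (median 0.51) and 3 and 0 in wild-type libraries (median 0.17), and 24 and 0 and 17 and 0 with total counts. Examples in H2R-deficient libraries were the oligosaccharyltransferase subunits Krtcap2 (2.76 ± 0.28) and Rpn2 (1.61 ± 0.17). Of 22 other degradation genes 2 were higher and 9 lower in H2R-deficient (median -0.33) and 0 and 1 in wild-type libraries (median -0.19), whereas with total counts 11 and 8 were higher and 0 lower. Ubxn4, for example, had -0.86 ± 0.16 under TMM and 0.05 under total counts.

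Of 12 other stress signalling genes 6 were higher and 3 lower in H2R-deficient (8 and 0 with total counts) and 2 and 0 in wild-type libraries (7 and 0 with total counts). Creb3l2, an ER-anchored transcription factor, rose by 2.06 ± 0.25 and 1.06 ± 0.25, and Eif2s1, the initiation factor subunit that PERK phosphorylates, rose by 1.84 ± 0.24 in H2R-deficient libraries. Of 18 genes linked to ATF4, 4 were higher and 5 lower in H2R-deficient and 2 and 3 in wild-type libraries, and with total counts 10 and 1 and 8 and 1. After TMM scaling these are shares near those of all genes in H2R-deficient libraries. The members moved in opposite directions: Phgdh, of serine synthesis, rose by 3.60 ± 0.37 and 2.31 ± 0.37, while Atf3, a stress-induced factor, went from 306 ± 107 to 123 ± 5.70 CPM in wild-type libraries (-1.31 ± 0.24, edgeR adjusted p = 0.0159). Of 18 chaperones of the cytosol and mitochondria, outside the ER, 9 were higher and 2 lower and 7 did not pass in H2R-deficient libraries (median 0.82; 15 and 0 with total counts), and 6 and 0 in wild-type libraries (11 and 0 with total counts). Those that rose include the chaperonin subunits Tcp1 (2.06 ± 0.20) and Cct2 (1.96 ± 0.19) in H2R-deficient libraries. No test compared the ER folding genes with these.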

How the data were processed

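Per the file headers, each deposited table holds the whole-number counts of reads that featureCounts assigned to a gene, before any normalization. Tools listed in the submitters' processing notes are Subread 1.5.2 (featureCounts), STAR 2.5.2b, Trimmomatic 0.36 and bcl2fastq 2.17.1.14, with the build GRCm38. No source used here gives their settings, the annotation release, the strand setting or the handling of multi-mapping reads. Gene lengths and coordinates come from the deposited files, and 48970 of 49315 identifiers had a symbol in the GENCODE annotation.

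Genes passing edgeR's filterByExpr by group (14909) were fitted with TMM scaling, 1 mean per group over all 8 libraries and robust quasi-likelihood tests (edgeR 4.0.16, R 4.3.3), with 4 residual degrees of freedom. Standard errors are the fold change divided by the square root of F. P-values were adjusted by Benjamini-Hochberg over all genes tested, at 0.05. Alternatives were total counts, DESeq2's size factors, no filter, at least 10 counts in 2 libraries, DESeq2 1.42.0, limma-voom (limma 3.58.1), the compared libraries alone, a replicate block and each library left out. The script was tested on simulated counts.

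Low-density and high-density libraries of a genotype share numbers. Their deviations from the group means correlated at 0.155 (wild type) and 0.326 (H2R deficient) over 14909 genes. Such correlations do not establish pairing, and the labels do not say what a number marks. The number was therefore used as a block in an alternative fit, while the main density tests took no account of it.

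Library values are CPM over TMM-scaled library size and marker sums CPM over total counts. The folding score used log2(CPM + 0.5). Values in every library were given for up to 3 genes per role with the lowest adjusted p in a density contrast, up to 6 in the genotype contrasts, and the sensors and effectors. From each other pathway list up to 2 genes per contrast were named. The 34 genes, roles and lists were chosen with earlier results of these data known. Lists of macrophage, T and NK, mast cell, eosinophil, erythroid, mesothelial and neutrophil precursor markers were also summed: high-density against low-density ranges were 244 to 536 and 359 to 544, 4.42 to 9.89 and 26.4 to 60.7, 27.3 to 46 and 24.7 to 29.5, 19.5 to 56.4 and 35.2 to 45.3, 18.9 to 156 and 0.0826 to 1.44, 0.142 to 16.6 and 11.3 to 78.8, and 321 to 1530 and 943 to 1700 CPM. Promoter sequences are RefSeq's (GRCm38.p6).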

Additional observations from a re-analysis of the deposited data

How the results depend on the processing

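With total counts the genes higher at low density numbered 19 in wild-type and 25 in H2R-deficient libraries and those lower in H2R-deficient libraries 1, and the difference of density effects gave 2 higher and 1 lower; that scaling shifts all genes toward low density. Among the H2R-deficient changes that passed under either scaling, the sign turned with it for Dnajb9 0.35, Ssr1 0.81, Derl1 0.54, Syvn1 0.82, Hspa5 0.76, Sec61a1 0.90, Edem1 0.20, Ppp1r15a 0.08, Atf4 0.56 and Sec61b 0.64; Sel1l (-0.39 to 0.52), Herpud1 (-0.47 to 0.44) and Trib3 (-0.85 to 0.07) turned too and passed under neither. Without a filter on low counts 5 genes were higher in wild type with density, 2 were lower between genotypes at high density, 6 higher and 1 lower at low density, and the difference gave 2 higher and 1 lower; the cause was not tested. Wild-type genes lower at low density numbered 3 with DESeq2's size factors, 3 with DESeq2 and 2 with limma-voom. Values for all genes are given, here or above, for total counts, the replicate block and DESeq2's genotype comparisons and difference. The other counts in this paragraph have no such background beside them and describe these genes only. DESeq2 called 1 lower between genotypes at high density, 2 higher and 1 lower at low density, and 2 higher and 1 lower in the difference. A filter of at least 10 counts in 2 libraries changed no call on a gene. With the replicate block 3 genes were higher and 1 lower in wild-type libraries, 14 and 6 in H2R-deficient libraries (Eif2ak3 added), and 0 and 0 in the difference, and it changed no other call. Of all 14909 genes the block gave 1648 higher and 973 lower in wild-type and 4749 and 3701 in H2R-deficient libraries. No block was fitted to the genotype contrasts, which share only the number 2. Leaving out each library in turn gave 1 to 4 genes higher and 0 to 2 lower in wild type, 3 to 6 lower in H2R-deficient libraries, and 0 to 1 higher between genotypes at low density. The folding genes' gain on the sensors in H2R-deficient libraries was 0.82 with medians and 1.38 against sensors and effectors together. Between genotypes it was 0.46 at low density, 1 with medians and 0.62 against both. At high density it was 0.21, -0.11 against both, and -0.09 to 0.52 with 1 library left out. At these depths the floor of 3 counts equals 0.124 to 0.151 CPM, which limits Derl3 in wild-type high-density libraries.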
